A study of Homo sapiens with 8 samples.

Results

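The genes described here encode the enzymes of glycolysis and of the citric acid cycle with its entry point, the pyruvate dehydrogenase complex. They were taken as all probe sets on the array whose annotation gave 1 gene symbol from a fixed list of 36 genes, 17 for glycolysis and 19 for the citric acid cycle. This gave 81 of the 54675 probe sets on the array, 40 for glycolysis and 41 for the citric acid cycle, and covered 35 genes; expression of fumarate hydratase, FH, was not analysed here. All RNA is from a single established line, H1, of human embryonic stem cells kept over irradiated mouse embryonic fibroblasts on gelatin. Cells were separated by light scatter on a flow cytometer into a large and a small fraction, and the labels name no other treatment. Each fraction was collected in 4 sorts, which the submitters call independent biological repeats, and its RNA was read on a separate 1-colour Affymetrix U133 Plus 2.0 array. Intensities ran on different scales, with 75th percentiles from 41.9 to 106 units, and were normalized to each other by quantiles, so the log2 levels below compare shares of each array's RNA and are no amounts per cell. Differences are small minus large cells on that scale.

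Glycolysis splits glucose into pyruvate in the cytosol and yields a small amount of ATP, and lactate dehydrogenase turns pyruvate into lactate. The pyruvate dehydrogenase complex carries pyruvate into the mitochondrial matrix pathway as acetyl-CoA, which the citric acid cycle oxidises to feed the respiratory chain. Human pluripotent stem cells are known for a high rate of glycolysis with lactate release, while the enzymes of the cycle are present and used.

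After quantile normalization and on the brightest probe set of each gene, transcripts of both pathways stayed within narrow bounds between small and large cells. No gene passed the test. In a limma fit over 14726 genes, 0 of the 17 glycolysis genes and 0 of the 18 citric acid cycle genes tested differed at a Benjamini-Hochberg adjusted p under 0.05, where 1.69% of all genes were lower and 0.299% higher in small cells by that rule. At an unadjusted p under 0.05 there were 0 glycolysis and 2 citric acid cycle genes, both higher in small cells, where 16.5% of all genes were counted and 8.51% were higher. The 4 small and 4 large values overlapped for all 35 genes, while they did not overlap for 10% of all genes (5.07% lower and 4.94% higher in small cells). In bulk RNA, fewer cells of a type and less RNA per cell cannot be told apart. The fold change was bounded on these probe sets and this scale only. The 95% interval lay within 2-fold in both directions for 16 of 17 glycolysis genes and 18 of 18 citric acid cycle genes. The share over all genes was 65.8%. Intervals of some dimmer probe sets reached past 2-fold, up to 1.33 for HK2, up to 1.36 for IDH2 and down to -1.41 for OGDH (log2). On the deposited scale SEs were larger, 0.53 for HK2 and 0.45 for SUCLG1 against 0.29 and 0.15. The interval on the brightest probe set after quantile normalization lay within 1.5-fold for 11 glycolysis and 12 citric acid cycle genes, against 24.3% of all genes. The median SE was 0.14 for glycolysis and 0.16 for the citric acid cycle, against 0.24 over all genes. Many of these genes are bright, and the shares are not set against genes of like brightness. The part of brightness in the narrow intervals was not tested.

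**Figure D1:**
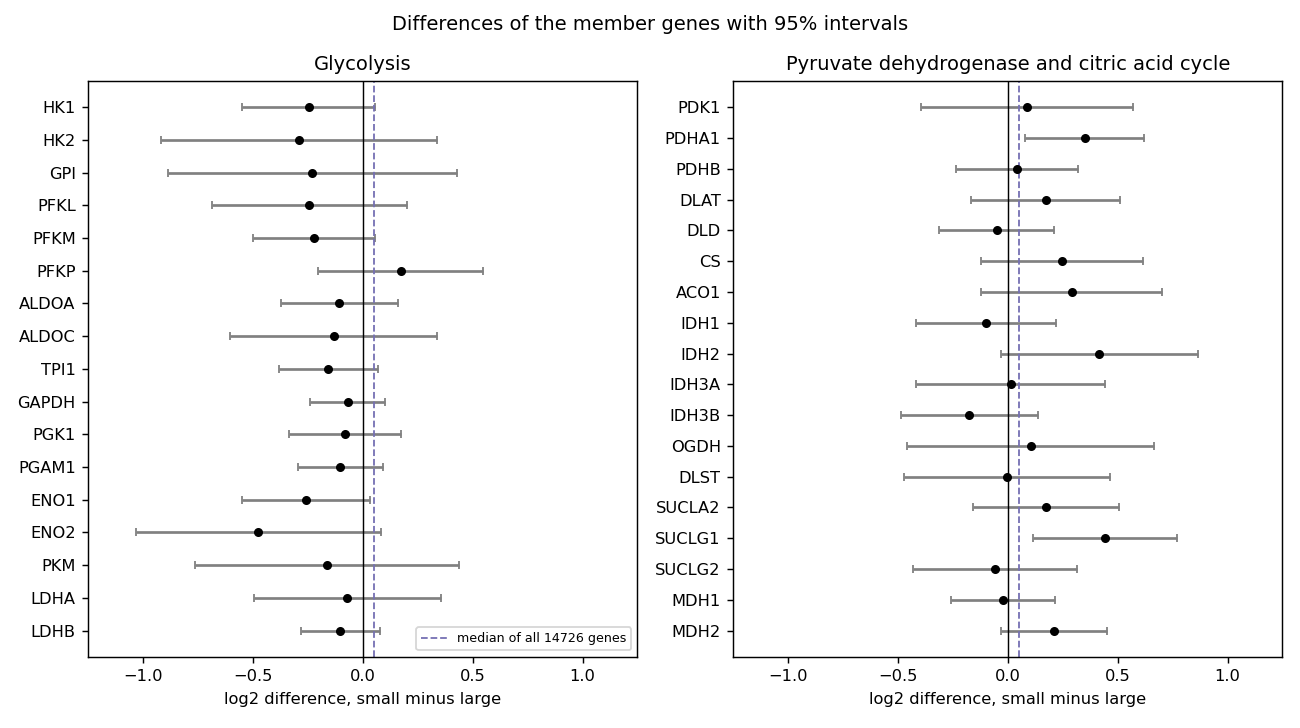
Log2 difference, small minus large, of each gene (points) with its 95% interval (bars, 4 arrays per group), glycolysis on the left and pyruvate dehydrogenase with the citric acid cycle on the right; the dashed line is the median of all 14726 genes, 0.05. Of the glycolysis points 16 of 17 lie below 0 and of the citric acid cycle points 12 of 18 lie above it, and the intervals of PDHA1 and SUCLG1 leave out 0 before adjustment.

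The cell fractions were checked against 4 marker lists. NANOG, a core stem cell factor, lay between 10.58 and 10.77 in small and between 10.65 and 10.81 in large cells, and SOX2 between 10.23 and 10.41 and between 10.27 and 10.56; POU5F1 and TDGF1 were not analysed here. In the stem cell list 12 of 14 genes were tested and 1, PODXL, was lower in small cells. The list summed to between 19772 and 22761 units in small and between 22458 and 25962 units in large cells. Of its 12 genes 10 were below 0, with a median of -0.10, against 44% and 0.05 over all genes. GDF3 was at -1.04 ± 0.45 (adjusted p = 0.26). The fibroblast and matrix list (13 of 15 tested, 0 called) summed to between 2785 and 4337 units in small and between 2012.5 and 4484 units in large cells, with 7 of 13 genes below 0 and a median of -0.01. Its genes lay on both sides, from -0.59 ± 0.28 for COL1A1 and -0.52 ± 0.31 for COL6A3 to 0.79 ± 0.29 for TWIST1 and 1.12 ± 0.30 for VIM, and of these TWIST1 and VIM had no overlap. The neural list (7 of 9 tested, 0 called) summed to between 1596 and 3252 units in small and between 1668 and 3103 units in large cells. All 7 genes had differences above 0, up to 1.77 ± 0.52 for PAX6 (adjusted p = 0.106). At an unadjusted p under 0.05 in limma 3 of the 7 were higher, against 8.51% of all genes. These sums are of linear levels, so bright genes carry them and dim genes count for little. TUBB3 had mean log2 levels of 10.81 in small and 10.62 in large cells, against 5.47 and 3.71 for PAX6. In the fibroblast and matrix list VIM was at 10.57 and 9.45. Mesoderm and endoderm markers (6 of 11 tested, 0 called) summed to between 181 and 475 units in small and between 191 and 475 units in large cells. Of these 6 genes 4 were above 0, with a median of 0.30, up to 0.75 ± 0.38 for AFP (adjusted p = 0.343). The part of such cells in the results was not tested. The lists hold human genes, so carry-over of the mouse feeder cells was not assessed.

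Glycolysis had 16 of 17 genes at a difference below 0 and a median of -0.16, and the citric acid cycle had 6 of 18 below 0 and a median of 0.10. Over all genes 44% were below 0 and the median was 0.05. Both counts depended on the scaling. For glycolysis, 16 of 17 were below 0 after quantile normalization and on the deposited scale, but 10 of 17 when arrays were aligned by their median or 75th percentile. For the citric acid cycle, 9 of 18 were below 0 on the deposited scale, where 56% of all genes were, and 1 of 18 under either alignment. Those 2 scalings put the median of all genes at 0.10 and 0.09. Relative to the median of all genes, the glycolysis median was -0.21 after quantile normalization and -0.14 under each of the other 3 scalings. The citric acid cycle median was 0.04 and 0.09. Those 3 scalings differ only by a constant per array, which moves all genes alike. Their equal relative medians are therefore fixed in advance and count as 1 result. The side of the citric acid cycle median was not stable: relative to all genes it was -0.02 without small array 2, -0.01 without large array 3 and -0.04 with the probe sets of a gene averaged.

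Single arrays carried much of the glycolysis shift. Taking each gene's deviation from its mean over the 8 arrays, the median over the 17 glycolysis genes was -0.10, -0.03, -0.05 and -0.14 on small arrays 1 to 4 and -0.06, 0.29, 0.13 and -0.02 on large arrays 1 to 4. Large arrays 2 and 3 were therefore high, with 16 and 13 of 17 genes above their mean, while large array 1 lay within the range of the small arrays and large array 4 just above it. Without large array 2 the median difference of glycolysis was -0.07, with 13 of 17 genes below 0. The median difference of citric acid cycle members, 0.10, became 0.0374 without small array 2, 0.0468 without large array 3 and 0.162 without small array 4. For the 18 citric acid cycle genes the same median was 0.10, 0.17, 0.06 and 0.03 on the small arrays and -0.02, -0.02, -0.12 and -0.03 on the large arrays. Here the 4 small arrays all lay above the 4 large arrays, by little: over all genes the small arrays were at 0.04, 0.03, 0.05 and 0.04 and the large arrays at -0.01, -0.01, 0.02 and 0.03, in the same order.

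**Figure D2:**
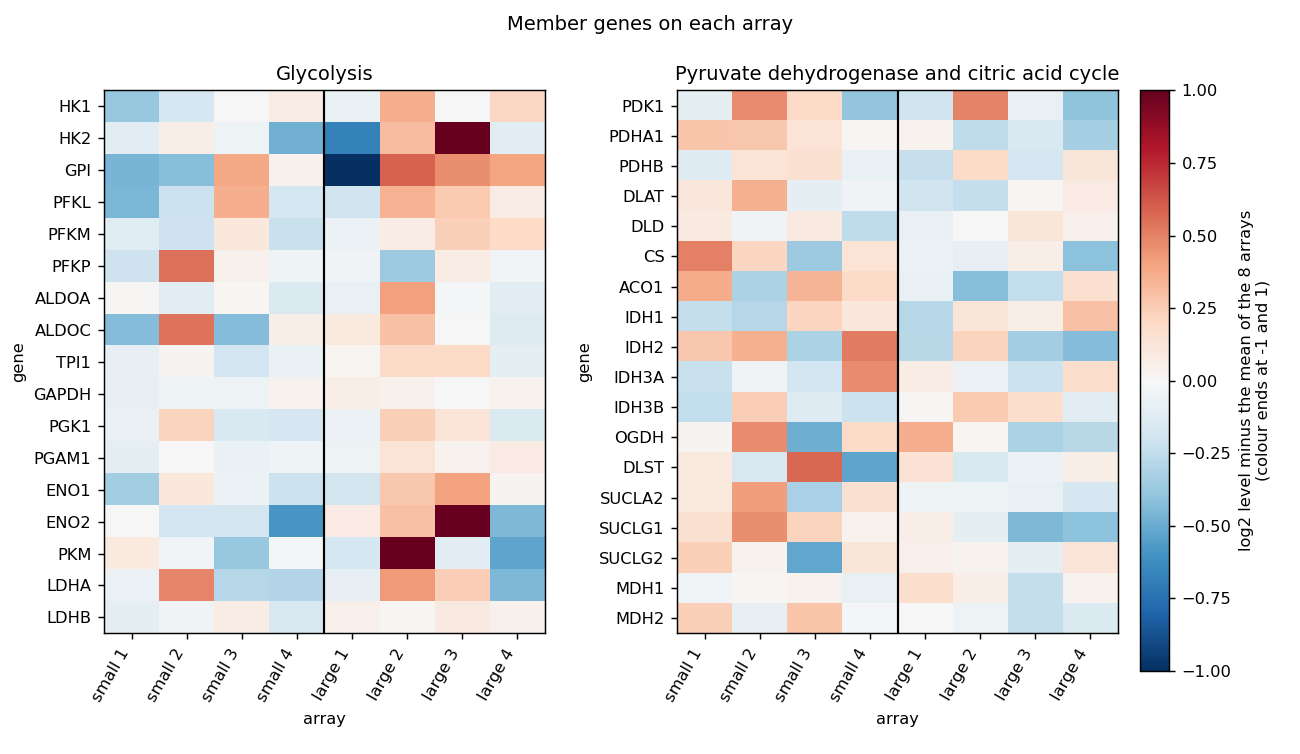
Deviation of each gene's log2 level from its mean over the 8 arrays (colour, red above and blue below), with small arrays left and large arrays right of the line. The glycolysis panel shows red along large array 2, where 16 of 17 genes were above their mean, and single dark cells for GPI on large array 1 (level 8.05), HK2 (8.80) and ENO2 (8.85) on large array 3 and PKM on large array 2 (10.10).

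The first step of glycolysis, the phosphorylation of glucose, is catalysed by hexokinases. HK1, the ubiquitous form, was at 9.81, 10.02, 10.19 and 10.26 in small and at 10.12, 10.55, 10.19 and 10.40 in large cells, a difference of -0.25 ± 0.14 (moderated SE, limma, n = 4 per group, adjusted p = 0.413). The upper small arrays lay inside the range of the large arrays. HK2, the inducible form, was at 7.62, 7.80, 7.69 and 7.26 in small and at 7.06, 8.05, 8.80 and 7.62 in large cells on its brightest probe set, a difference of -0.29 ± 0.29 (adjusted p = 0.682) whose sign turned without large array 3 (0.01). The small arrays were close together, and the large arrays held both the lowest and the highest level. HK2 also had 2 dimmer probe sets with the opposite sign, the dimmest at 0.81 ± 0.24 (adjusted p over probe sets 0.121) and the other at 0.76 ± 0.24 (adjusted p over probe sets 0.145). On the dimmest the small arrays were at 5.59, 5.81, 5.31 and 5.43, all above the large arrays at 4.74, 4.51, 5.03 and 4.61. Probe sets of 1 gene thus gave no single direction for HK2, and their mean was 0.43 ± 0.18 (adjusted p = 0.272).

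GPI, which converts glucose 6-phosphate to fructose 6-phosphate, was at 8.58, 8.62, 9.43 and 9.08 in small cells. In large cells it was at 8.05, 9.63, 9.51 and 9.44, so that 3 large arrays lay above all small arrays and large array 1 below them. Its difference was -0.23 ± 0.31 (adjusted p = 0.767), -0.60 ± 0.20 without large array 1 (adjusted p = 0.124), and -0.77 ± 0.17 without large array 1 and small array 3 (adjusted p = 0.0256). Those arrays hold the lowest large and the highest small level of GPI, so leaving them out had to widen the difference, and 5.27% of all genes passed in that fit. They were left out because they had the largest gap between the 3′ and the 5′ control probe sets of GAPDH. That gap was 1.98 and 1.81 on the log2 scale against 0.72 to 1.21 on the others. The same gap for ACTB was 3.71, 3.11, 3.51 and 3.63 on small arrays 1 to 4. On large arrays 1 to 4 it was 3.86, 2.97, 2.94 and 2.96. Small array 3 thus did not stand out on ACTB. The ACTB group means were 3.49 in small and 3.18 in large cells (exact two-sided permutation p = 0.343). The part of RNA quality in the results was not tested. Phosphofructokinase, the committed step, is built from 3 kinds of subunit, which differed by -0.24 ± 0.21 for PFKL of liver type, by -0.22 ± 0.13 for PFKM of muscle type and by 0.17 ± 0.17 for PFKP of platelet type, the 1 glycolysis gene above 0. None of these passed (adjusted p = 0.608, 0.422 and 0.685). The level of PFKP was highest on small array 2, at 9.64, and without that array its difference was 0.02.

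In the middle of the pathway, the aldolases split the sugar, TPI1 interconverts the triose products, and GAPDH, PGK1 and PGAM1 carry the product on. ALDOA differed by -0.11 ± 0.12 and ALDOC by -0.13 ± 0.22. TPI1 differed by -0.16 ± 0.10, PGK1, the first ATP-forming enzyme, by -0.08 ± 0.12 and PGAM1 by -0.10 ± 0.09. Adjusted p for these 5 genes ran from 0.5 for TPI1 to 0.819 for ALDOC. With arrays aligned by their median instead, ALDOA, TPI1, PGK1 and PGAM1 were above 0, at 0.06, 0.07, 0.11 and 0.11, so these directions turned with the scaling; the same held for LDHA (0.14) and GAPDH (0.03), described next. After quantile normalization the intervals bounded the fold change of PGAM1 between 0.814 and 1.07. That of PGK1 was bounded between 0.792 and 1.13 on its brightest probe set.

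GAPDH, which oxidises glyceraldehyde 3-phosphate and is widely used as a reference gene, was at 12.59, 12.63, 12.62 and 12.71 in small and at 12.74, 12.71, 12.66 and 12.71 in large cells. Its difference was -0.07 ± 0.08 (adjusted p = 0.721), and its fold change was bounded between 0.847 and 1.07. It ranked between place 62 and place 102 among all probe sets on every array, where quantile normalization gives arrays nearly the same values, so its small spread is partly set by that step. On the deposited scale the same probe set was at 12.62, 12.45, 12.91 and 12.51 in small and 12.47, 12.75, 12.94 and 12.79 in large cells. Relative to each array's 75th percentile its difference was 0.04, with group means of 6.69 ± 0.33 (SD, n = 4) and 6.65 ± 0.38 (SD, n = 4) and an exact two-sided permutation p of 0.886. The array also holds 3 control probe sets for GAPDH, at the 3′ end, the middle and the 5′ end of the transcript. On the deposited scale the 5′ control was at 11.71, 11.96, 11.35 and 11.59 in small cells and at 10.37, 12.34, 12.54 and 12.17 in large cells. Large arrays 2 to 4 were above and large array 1 below all small arrays, and the group difference of -0.20 was within the spread (exact two-sided permutation p = 0.8, smallest possible 0.0286). The 3′ control differed by -0.02 (exact permutation p = 0.971) and the middle control by -0.09 (exact permutation p = 0.714).

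**Figure D3:**
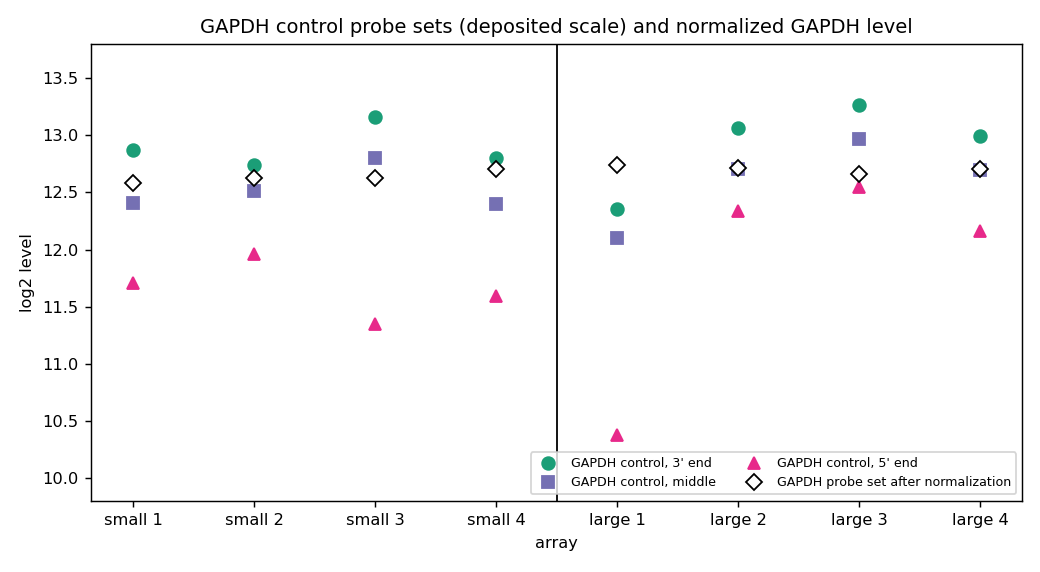
Log2 levels of the GAPDH control probe sets at the 3′ end, middle and 5′ end on the deposited scale (filled symbols) and of the GAPDH probe set after normalization (open diamonds) on each array. The 5′ control falls to 10.37 on large array 1 and 11.35 on small array 3, while the normalized level stays between 12.59 and 12.74.

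At the lower end of glycolysis, enolases make phosphoenolpyruvate. ENO1, the ubiquitous form, was at 11.80, 12.25, 12.09 and 11.94 in small and at 11.97, 12.41, 12.55 and 12.17 in large cells, a difference of -0.26 ± 0.14 (adjusted p = 0.369, the lowest of the glycolysis genes). The 2 groups overlapped over most of the small range. ENO2, the neuronal form, was at 7.83, 7.63, 7.64 and 7.24 in small and at 7.91, 8.12, 8.85 and 7.37 in large cells, the farthest from 0 in glycolysis at -0.48 ± 0.26 (adjusted p = 0.39). Large arrays 1 to 3 were above all small arrays and large array 4 below 3 of them, and without large array 3 the difference was -0.21. ENO2 was also the 1 glycolysis gene whose interval on the brightest probe set, -1.04 to 0.08, reached past 2-fold. Pyruvate kinase, PKM, was at 9.06, 8.94, 8.59 and 8.95 in small and at 8.79, 10.10, 8.86 and 8.44 in large cells. Its difference of -0.16 ± 0.28 (adjusted p = 0.826) rested on large array 2 and turned to 0.19 without it. LDHA and LDHB, the lactate dehydrogenase subunits, differed by -0.07 ± 0.20 and -0.10 ± 0.08 (adjusted p = 0.903 and 0.591). LDHA was at 11.42, 11.98, 11.20 and 11.20 in small and at 11.41, 11.91, 11.73 and 11.03 in large cells, so the spread between sorts covered both groups alike.

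**Figure D4:**
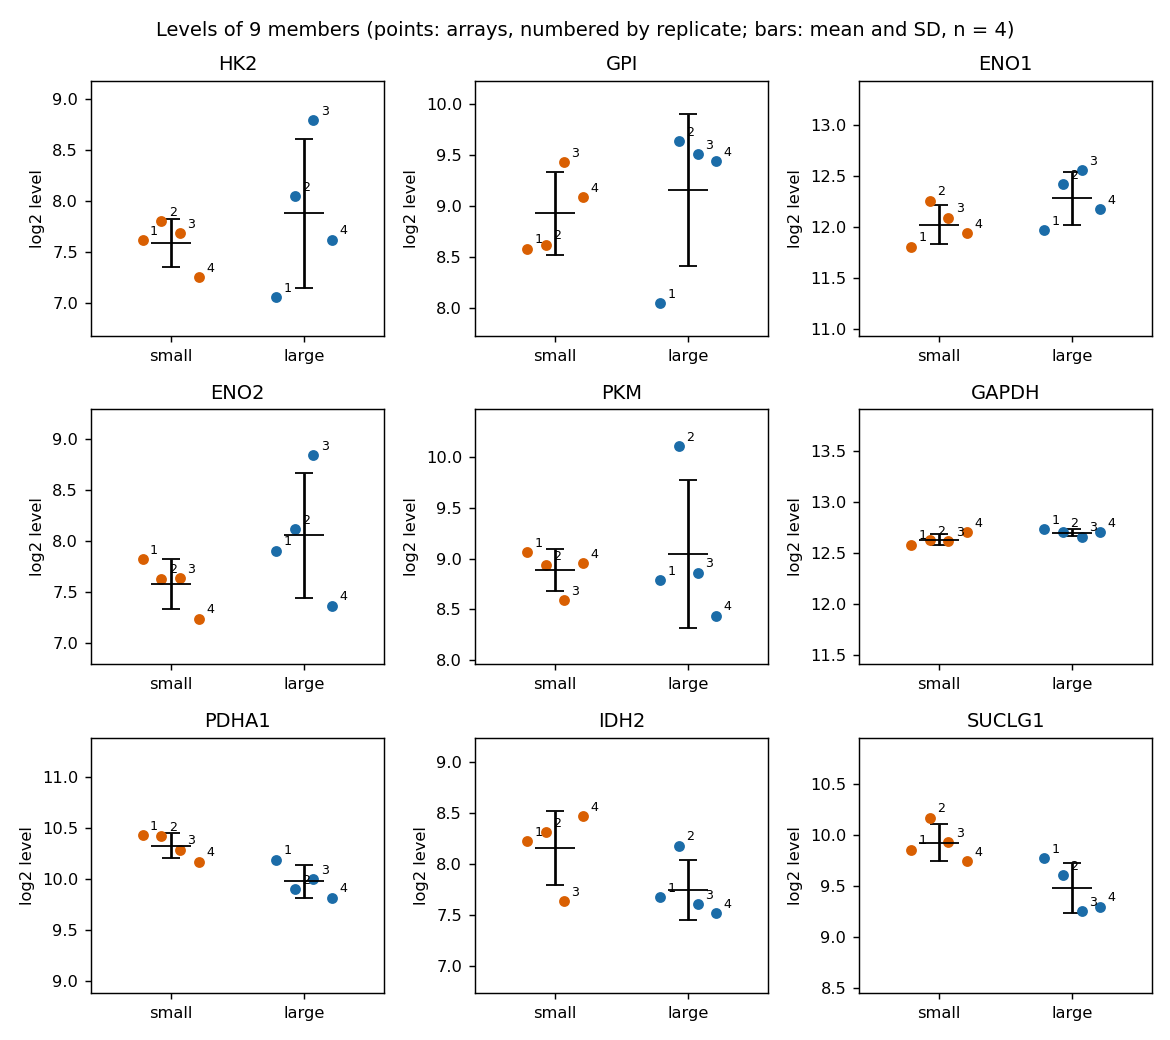
Log2 levels of 9 genes on each array (points, numbered by replicate) with mean and SD of 4 arrays (bars), each panel spanning the same range of 2.5 log2 units. GPI, HK2, ENO2 and PKM are widely spread among the large arrays, GAPDH is flat between 12.59 and 12.74, and for PDHA1 and SUCLG1 only the edges of the groups overlap.

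The promoters of the genes were also searched for a feature that the choice of genes did not use. The core letters ACGTG, on either strand, are part of the site bound by hypoxia-inducible factors, which are known to drive many glycolytic genes. The RefSeq promoter table (GRCh38.p14), which matched all genes but OGDH, was searched over the 250 bases before each start. The letters were found in 14 of 37 glycolysis promoters and in 4 of 22 citric acid cycle promoters, against 18.5% of all promoters of this length. By gene, 11 of 17 glycolysis and 4 of 18 citric acid cycle genes had such a promoter, against 21.7% of all genes, but the glycolysis genes had more promoters searched, 2.18 per gene against 1.22 and 1.29, so the shares by gene are not like for like. Those 18 genes include FH and lack OGDH. The related letters GCGTG were in 10 of 37 and 11 of 22 promoters, against 32.2% of all. Some promoters of 1 gene overlap, as for HK1 and PFKM, so the promoters counted are not independent. The shares were not tested. The 3 glycolysis sequences below show repeated matches and PDHB shows one of the citric acid cycle, with ACGTG on either strand in capitals; the run CACGTG matches on both strands and counts as 2. They are written 5′ to 3′ on the gene's strand.
LDHA, chr11:18394313-18394562, plus strand: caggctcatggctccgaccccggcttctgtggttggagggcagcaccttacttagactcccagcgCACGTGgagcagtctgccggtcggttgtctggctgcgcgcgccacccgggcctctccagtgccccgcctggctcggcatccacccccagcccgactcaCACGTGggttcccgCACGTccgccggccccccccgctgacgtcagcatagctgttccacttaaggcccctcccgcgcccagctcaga
PGK1, chrX:78103998-78104247, plus strand: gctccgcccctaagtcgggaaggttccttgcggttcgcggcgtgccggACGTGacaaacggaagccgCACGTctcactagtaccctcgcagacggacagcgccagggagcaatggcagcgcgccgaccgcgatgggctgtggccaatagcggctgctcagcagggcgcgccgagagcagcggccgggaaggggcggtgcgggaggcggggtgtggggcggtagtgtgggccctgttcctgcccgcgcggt
HK2, chr2:74834920-74835169, plus strand: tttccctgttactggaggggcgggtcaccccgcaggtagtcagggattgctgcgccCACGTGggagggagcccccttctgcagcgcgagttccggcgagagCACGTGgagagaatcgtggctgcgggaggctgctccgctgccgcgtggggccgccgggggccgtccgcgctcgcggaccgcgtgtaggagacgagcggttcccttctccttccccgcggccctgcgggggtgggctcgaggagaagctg
PDHB, chr3:58433833-58434082, minus strand: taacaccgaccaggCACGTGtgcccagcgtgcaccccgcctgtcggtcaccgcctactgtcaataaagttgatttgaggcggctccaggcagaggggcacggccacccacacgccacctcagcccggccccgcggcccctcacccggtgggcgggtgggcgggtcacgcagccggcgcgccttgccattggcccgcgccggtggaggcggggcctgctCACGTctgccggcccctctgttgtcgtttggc
LDHA has 5 matches, HK2 4, PGK1 2 and PDHB 3. The 11 glycolysis genes with ACGTG had differences between -0.48 and 0.17 with a median of -0.13, and the 6 without it (ENO1, HK1, LDHB, PFKL, PGAM1 and PKM) between -0.26 and -0.10 with a median of -0.20.

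Pyruvate enters the cycle through pyruvate dehydrogenase, which PDK1 inhibits by phosphorylation. PDHA1, the catalytic alpha subunit and the target of that kinase, was at 10.42, 10.42, 10.28 and 10.16 in small and at 10.19, 9.89, 9.997 and 9.81 in large cells. Only small array 4 and large array 1 crossed. Its difference was 0.35 ± 0.13, a 1.27-fold higher level in small cells that did not pass (unadjusted p = 0.0151, adjusted p = 0.181). A dimmer probe set of PDHA1 was at 7.13, 6.40, 7.08 and 6.60 in small and at 6.23, 6.17, 6.34 and 6.25 in large cells with no overlap (0.56 ± 0.21, adjusted p over probe sets 0.216), while a bright one differed by -0.02 ± 0.14. The beta subunit PDHB differed by 0.04 ± 0.13, the acetyltransferase DLAT by 0.17 ± 0.16, the shared dehydrogenase DLD by -0.05 ± 0.12 and PDK1 by 0.09 ± 0.22. Their adjusted p ran from 0.644 for DLAT to 0.912 for PDHB, and all 3 probe sets of DLAT were above 0.

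CS, citrate synthase, opens the cycle and was at 10.91, 10.62, 10.05 and 10.55 in small and at 10.35, 10.33, 10.47 and 10.003 in large cells. Small arrays 1, 2 and 4 were above all large arrays, and the difference was 0.24 ± 0.17 (adjusted p = 0.523). ACO1, the cytosolic aconitase that also acts as an iron-responsive RNA-binding protein, differed by 0.29 ± 0.19 (adjusted p = 0.49), but its other tested probe set was at -0.26. The isocitrate dehydrogenases were measured in both compartments. IDH2, the mitochondrial NADP-dependent form, was at 8.22, 8.31, 7.63 and 8.47 in small and at 7.67, 8.18, 7.60 and 7.52 in large cells, a difference of 0.42 ± 0.21 (adjusted p = 0.34). Small array 3 lay among the large arrays and large array 2 near the small ones, and without small array 3 the difference was 0.59 (adjusted p = 0.129). Its second probe set was at 0.66 ± 0.32. IDH1, the cytosolic form, differed by -0.10 ± 0.15 (adjusted p = 0.792), and all 3 of its probe sets were below 0. On the dimmest of them the small arrays at 4.64, 4.16, 4.56 and 3.99 were all below the large arrays at 4.79, 4.97, 4.95 and 5.15 (-0.63 ± 0.28, adjusted p over probe sets 0.305). IDH3A and IDH3B, subunits of the NAD-dependent enzyme of the cycle, differed by 0.01 ± 0.20 and -0.18 ± 0.14.

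OGDH and DLST, the first and second components of the oxoglutarate dehydrogenase complex, differed by 0.10 ± 0.26 and -0.00 ± 0.22 (adjusted p = 0.89 and 0.995). OGDH was dim on all its probe sets, and another of them stood at -0.68 ± 0.34 (adjusted p over probe sets 0.356). Succinyl-CoA ligase pairs a shared alpha subunit, SUCLG1, with a beta subunit specific for ATP, SUCLA2, or for GTP, SUCLG2. SUCLG1 was at 9.86, 10.17, 9.93 and 9.74 in small and at 9.77, 9.61, 9.26 and 9.30 in large cells, crossing only between small array 4 and large array 1. It had the difference farthest from 0 of the citric acid cycle genes, 0.44 ± 0.15 or 1.36-fold (unadjusted p = 0.0116, adjusted p = 0.162), with an interval from 0.12 to 0.77. It passed when arrays were weighted by quality (0.52 ± 0.14, adjusted p = 0.0471), where 5.6% of all genes passed, and in none of the other 21 alternatives, and with 1 array left out its difference ran from 0.36 to 0.54. SUCLA2 was at 0.17 ± 0.15 and SUCLG2 at -0.06 ± 0.17 (adjusted p = 0.631 and 0.91), and all 3 tested probe sets of SUCLG2 were below 0. The malate dehydrogenases differed by 0.21 ± 0.11 for mitochondrial MDH2 and by -0.02 ± 0.11 for cytosolic MDH1 (adjusted p = 0.378 and 0.948). MDH2 was at 11.76, 11.44, 11.80 and 11.51 in small and at 11.53, 11.47, 11.29 and 11.38 in large cells, so small arrays 2 and 4 lay within the large arrays.

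Isoenzymes and subunits were also compared with each other on the same array, as differences between small and large cells in their log2 ratio after normalization. The log2 ratio of MDH2 to MDH1 was 0.23 higher in small than in large cells (exact two-sided permutation p = 0.0571, and 0.377 adjusted over 11 pairs). On the deposited scale, where array scaling cancels from such a ratio, it was 0.26 higher (exact permutation p = 0.0571). The ratio of SUCLG1 to SUCLG2 was 0.50 higher (exact permutation p = 0.114), that of SUCLA2 to SUCLG2 0.23 higher, that of IDH2 to IDH1 0.52 higher (exact permutation p = 0.171 for each) and that of PDHA1 to PDHB 0.31 higher (exact permutation p = 0.229). In glycolysis the ratio of PFKP to PFKM was 0.40 higher (exact permutation p = 0.114) and that of PFKP to PFKL 0.42 higher (exact permutation p = 0.257). The ratios HK2 to HK1 (-0.04), ALDOC to ALDOA (-0.02), ENO2 to ENO1 (-0.22) and LDHA to LDHB (0.03) were nearer to 0, with p from 0.486 to 1 in exact permutation tests. No pair passed after adjustment, the lowest adjusted p being 0.377, or 0.314 on the deposited scale, and these pairs were chosen after the data were seen.

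Probe sets of 1 gene often differed in sign. Of the 81 probe sets 3 were controls and 6 were too dim to be tested, and 0 of the 72 tested passed, where 1.5% of all probe sets did. At an unadjusted p under 0.05 there were 6, for HK2, PDHA1, SUCLG1 and IDH1, against 15.3% of all probe sets. Of 23 genes with more than 1 tested probe set, 10 had all of them on 1 side of 0, 4 of 10 in glycolysis (PFKL, GAPDH, PKM and LDHB) and 6 of 13 in the citric acid cycle (DLAT, DLD, IDH1, IDH2, SUCLG2 and MDH2). Overlap was absent for 3 of the 72, described above, against 9.34% of all probe sets: 2 were higher in small cells (HK2 and PDHA1, against 3.89%) and 1 lower (IDH1, against 5.46%). Of the 34 glycolysis probe sets tested 27 were below 0, and of the 38 for the citric acid cycle 19 were above 0. Of the probe sets that stood for the 35 genes, 21 ended in _x_at or _s_at, a mark of probes that can bind other transcripts, and glycolytic genes such as GAPDH have processed pseudogenes.

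**Figure D5:**
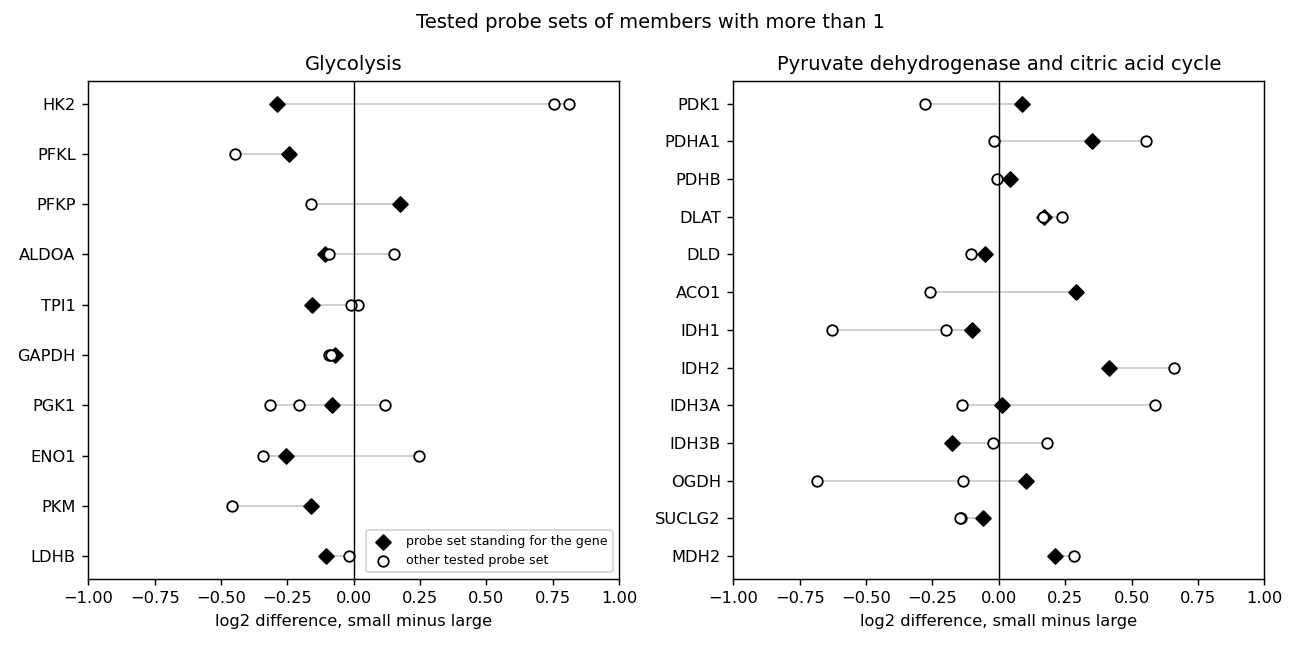
Log2 differences, small minus large, of all tested probe sets of the 23 genes with more than 1; filled diamonds stand for the gene in the other results and open circles are its other probe sets. HK2 is the widest, from -0.29 to 0.81, and the 3 GAPDH probe sets lie between -0.09 and -0.07.

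Genes around the 2 pathways were taken from further lists. Of 9 tested genes for glucose, lactate and pyruvate transport, 1 was lower and 0 higher in small cells: BSG, basigin, the chaperone that brings monocarboxylate transporters to the plasma membrane. BSG was at 7.90, 8.08, 7.62 and 8.13 in small and at 8.77, 9.14, 8.40 and 8.58 in large cells with no overlap, a difference of -0.79 ± 0.19 (adjusted p = 0.0467) that did not pass without any 1 of the 8 arrays (-0.91 to -0.65, adjusted p = 0.0566 to 0.131). Nor did BSG pass on the deposited scale (-0.88, adjusted p = 0.9998), with arrays aligned by their median (-0.73, adjusted p = 0.312), without the filter on dim probe sets (adjusted p = 0.0514) or without a variance trend (adjusted p = 0.1415). The median over the transport list was -0.43, and 7 of its 9 genes lay below 0. At an unadjusted p under 0.05 in limma 4 of the 9 were lower and 0 higher, against 8% and 8.51% of all genes. Among the 4 was the glucose transporter SLC2A3, at -0.56 ± 0.17 (adjusted p = 0.113). Of 17 other enzymes of glycolysis and gluconeogenesis 0 passed, with 9 above 0 and a median of 0.04. The ADP-dependent glucokinase ADPGK was at -0.74 ± 0.18 (adjusted p = 0.0522) without overlap, the mitochondrial glycerol 3-phosphate dehydrogenase GPD2 at -0.59 ± 0.18 (adjusted p = 0.124) and the glucose 6-phosphatase G6PC3 at -0.69 ± 0.22 (adjusted p = 0.139). ADPGK passed in 9 of 22 alternatives and GPD2 in 2. Of 24 other pyruvate dehydrogenase and citric acid cycle genes 0 passed, with 18 above 0 and a median of 0.13. The malic enzyme ME1 was at 0.62 ± 0.18 (adjusted p = 0.105), the assembly factor SDHAF1 of succinate dehydrogenase at 0.49 ± 0.20 and PDPR, a regulator of pyruvate dehydrogenase phosphatase, at -0.46 ± 0.17. Of 7 pentose phosphate genes 0 passed, with PGLS at 0.51 ± 0.17, the transketolase TKT at 0.27 ± 0.11 and PGD at -0.38 ± 0.21. Of 15 genes of the hypoxia-inducible factors and their other targets 0 passed, with 7 above 0 and a median of -0.02. The collagen prolyl hydroxylases P4HA1 and P4HA2 were at -0.86 ± 0.22 (adjusted p = 0.0678) and -0.76 ± 0.23, and VEGFA at -0.46 ± 0.26. Lower in small cells without overlap were 1 of 9 transport genes (BSG) and 2 of 17 other glycolysis and gluconeogenesis enzymes (ADPGK and GPD2). The same held for 1 of 24 other citric acid cycle genes (PDPR) and 1 of 15 hypoxia genes (P4HA2). Higher without overlap were 2 of the 24, among them ME1, and 1 of 7 pentose phosphate genes (PGLS). Over all genes 5.07% were lower and 4.94% higher without overlap.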

How the data were processed

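RNA of 4 small and 4 large sorts of H1 cells was measured, 1 array each. The deposited values are linear intensities per probe set; per the series' design text they were handled in the GeneChip software and Rosetta Resolver 7.1, while background correction and summarisation are not given in the sources used here. After removing 62 control probe sets, log2(intensity + 1.813), with the 10th percentile as pseudocount, was quantile normalized, because log2 75th percentiles spanned 1.33. Probe sets with a mean above 3.623 (the 40th percentile) were tested, 32768 in all. A gene was represented by its brightest tested probe set, giving 14726 genes. limma 3.58.1 in R 4.3.3 compared small with large (variance trend, two-sided, Benjamini-Hochberg over all genes, threshold 0.05); intervals are 95% and moderated. Of 54675 probe sets, 41097 had 1 symbol, 1801 several and 11777 none, in the platform annotation; 41043 were matched to RefSeq by gene ID. The number of arrays limits the precision.

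The genes and lists were chosen with earlier results of these data known. Every gene of the 2 pathways is named; values of all arrays are given for those passing the test, those without overlap, the 3 farthest from 0 per pathway and GAPDH, and for others as examples chosen after their values were seen, among them HK1, GPI, PKM, LDHA, CS, MDH2 and single probe sets. Of other lists up to 3 genes are named. Alternatives were scaling, pseudocount, filter, probe set choice, variance model, replicate block, array weights and arrays left out; large array 1 and small array 3 were left out together after seeing the data. The sorts are called independent biological repeats in the labels. Replicate numbers were not taken as pairs, because the sorts numbered 4 correlated near 0.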

Additional observations from a re-analysis of the deposited data

Results flagged for a closer look

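Of 70 groups of 4 values examined, 1 held a sample far from its others. GPI was at 8.05 on large array 1, while the other large arrays were between 9.44 and 9.63. Chance flags about 1 in 20 such groups. That array was also the dimmest, with a 75th percentile of 41.9 units, and had the largest 3′ to 5′ difference of the GAPDH controls, 1.98 on the log2 scale. The part of these in the GPI value was not tested.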

How the results depend on the processing

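Over 22 alternatives, 21 planned and 1 added after seeing the data, the 35 genes gave 758 values, of which 695 kept their sign and side of the threshold, 61 turned sign and 2 newly passed: SUCLG1 with array weights (1 citric acid cycle gene higher) and GPI without large array 1 and small array 3 (1 glycolysis gene lower), where 5.6% and 5.27% of all genes passed. The sign turned in at least 1 alternative for 20 genes and in none for 15. On the deposited scale, with arrays aligned by their median and without a variance trend, the genes called were 0 and the probe sets called 3 each time; 494, 1575 and 2234 genes had an unadjusted p under 0.05 in limma. Scaling to the 75th percentile gave 148 lower and 62 higher, 70.5% lower against 85%. Array weights gave 824 genes and 1131 probe sets, dropping probe sets ending _x_at or _s_at 190 and 290 (8 glycolysis and 15 citric acid cycle genes remained), leaving out the 2 arrays together 776 and 1148, and leaving out 1 array at a time 62 (without small array 1) to 553 (without large array 1) genes and 49 to 788 probe sets. The median difference of citric acid cycle members was 0.0382 on the deposited scale, 0.187 with median centring, 0.186 with 75th percentile scaling, 0.166 without those probe sets and 0.0171 with probe sets averaged, and 0.0374 to 0.162 with 1 array left out; relative to all genes it was below 0 without small array 2 (-0.02), without large array 3 (-0.01) and with probe sets averaged (-0.04).

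On the deposited scale PDK1 was at -0.00304, IDH3A at -0.129 and OGDH at -0.0663. Aligned by the median and by the 75th percentile, in that order, ALDOA was at 0.0587 and 0.0569, TPI1 at 0.0668 and 0.065, GAPDH at 0.0343 and 0.0325, PGK1 at 0.112 and 0.111, PGAM1 at 0.11 and 0.108, LDHA at 0.143 and 0.141, DLD at 0.0978 and 0.096, IDH1 at 0.0842 and 0.0823, DLST at 0.0523 and 0.0504, SUCLG2 at 0.00736 and 0.00554 and MDH1 at 0.141 and 0.139. A pseudocount of 16 put DLST at 5.03e-05. Array weights put PKM at 0.0226, PDHB at -0.00504 and MDH1 at 0.0095. Without _x_at and _s_at probe sets ACO1 was at -0.258 and IDH3B at 0.181. With probe sets averaged HK2 was at 0.426, PDK1 at -0.0961, OGDH at -0.239 and PGD at 0.00869. Without large array 1 and small array 3 ALDOC was at 0.000773, PDK1 at -0.0141, PDHB at -0.0704, SUCLG2 at 0.0542 and MDH1 at 0.0106. With 1 array left out, HK2 ran from -0.567 to 0.0139, ALDOA from -0.165 to 0.0101, PKM from -0.366 to 0.191, LDHA from -0.241 to 0.0589, PDK1 from -0.0543 to 0.268, PDHB from -0.0263 to 0.113, DLD from -0.0911 to 0.0241, IDH3A from -0.144 to 0.0892, OGDH from -0.0367 to 0.275, DLST from -0.196 to 0.171, SUCLG2 from -0.147 to 0.0634 and MDH1 from -0.109 to 0.0282. The cause of these changes was not tested.

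With the replicate block the genes called were 753, against 293 without it, and the probe sets called 1205, against 491. None of the genes called was among the 35 (lowest adjusted p 0.071, SUCLG1), while ADPGK, GPD2, ME1 and P4HA1 passed. Same-numbered sorts correlated at 0.114, 0.126, 0.234 and 0.0138 in their deviations, and 3 of 4 small arrays correlated best with their own number. The last value was near 0, although single genes followed the numbers there too. COL3A1 was at 7.65, 8.55, 6.73 and 4.91 on small arrays 1 to 4. On large arrays 1 to 4 it was at 7.97, 8.39, 6.28 and 5.10. The numbers were not taken as pairs, which does not show that the sorts were unpaired. Except with the replicate block, the SEs, intervals and permutation p-values therefore take no account of a pairing by number, which limits them.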
